A study of Mus musculus with 8 samples.

Results

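The Sox genes encode transcription factors that share a DNA-binding domain related to that of the sex-determining protein Sry. Sox4, Sox6, Sox8, Sox9, Sox10, Sox11, Sox12 and Sox13 were chosen by name, with earlier results of these data known. They make up 8 of the 53697 genes listed in the table of the series. All 8 passed the filter on low counts and were tested among 18322 genes. RNA was sequenced from tumors of MMTV-PyMT mice, in which the mouse mammary tumor virus promoter drives the polyoma middle T antigen in mammary epithelium. Each of 4 mice gave 1 library of Dll1+ and 1 library of Dll1- tumor cells, sorted by a reporter of the Notch ligand gene Dll1, which makes 8 libraries in 4 pairs. Mice 1 and 2 were PyMT-Dll1GFP, in which a GFP-IRES-Cre-ERT2 cassette is knocked in at Dll1, and mice 3 and 4 were PyMT-Dll1mCh, which carry a BAC-based mCherry reporter. Cells bearing CD45, CD31 or Ter119 were removed before sorting, so that the gate was negative for blood and endothelial cells but was not set on an epithelial marker. All 4 groups carried the PyMT transgene, no age is given in the labels, and each group held 2 mice. The reporter construct, the mice that carried it and any processing batch cannot be told apart.

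Sox proteins bind the minor groove of DNA and bend it, and they act with partner factors that differ between cell types. SoxC proteins (Sox4, Sox11 and Sox12) are activators of neural and mesenchymal progenitors, and Sox4 is also known for its role in epithelial-mesenchymal transition in mammary tumors. SoxE proteins (Sox8, Sox9 and Sox10) direct neural crest, glial and cartilage fates, and Sox9 and Sox10 are known in the mammary gland for luminal progenitor and stem-like states. SoxD proteins (Sox6 and Sox13, with Sox5) lack a transactivation domain of their own and modulate the action of other factors, including SoxE proteins in cartilage.

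Promoter sequences were available from RefSeq (GRCm38.p6) for 6 of the 8 genes, with 11 start sites in all, and Sox9 and Sox10 had no entry. The 250 bases before the start sites of the 3 SoxC genes are shown because each of them passed the test of Dll1+ against Dll1- cells in some mice, Sox12 over all 4, Sox4 in PyMT-Dll1mCh and Sox11 in PyMT-Dll1GFP mice. Capitals mark matches on either strand to CCAAT, the core site of the factor NF-Y. They also mark matches on either strand to TGGGAA, the core site of RBPJ, the factor through which Notch signals.
Sox4 promoter, chr13:28953700-28953949, minus strand: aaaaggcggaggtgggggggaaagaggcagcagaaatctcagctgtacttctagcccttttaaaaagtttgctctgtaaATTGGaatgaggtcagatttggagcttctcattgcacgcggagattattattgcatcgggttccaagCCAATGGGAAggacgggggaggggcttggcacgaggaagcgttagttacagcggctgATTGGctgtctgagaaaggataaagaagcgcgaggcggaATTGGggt
Sox11 promoter, chr12:27342719-27342968, minus strand: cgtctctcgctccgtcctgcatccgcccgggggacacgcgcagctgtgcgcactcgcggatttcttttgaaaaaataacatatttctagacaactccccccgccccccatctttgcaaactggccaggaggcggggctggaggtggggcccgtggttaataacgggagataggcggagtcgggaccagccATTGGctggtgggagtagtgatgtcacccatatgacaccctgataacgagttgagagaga
Sox12 promoter, chr2:152398047-152398296, minus strand: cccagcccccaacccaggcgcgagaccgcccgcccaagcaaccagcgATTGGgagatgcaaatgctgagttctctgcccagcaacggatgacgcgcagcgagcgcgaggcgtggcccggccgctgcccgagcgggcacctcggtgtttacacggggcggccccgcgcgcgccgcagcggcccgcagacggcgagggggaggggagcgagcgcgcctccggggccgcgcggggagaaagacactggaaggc
The Sox4 sequence held 4 matches to the NF-Y core and 1 match to the RBPJ core, which overlapped an NF-Y core by 1 base. The Sox11 and Sox12 sequences held 1 NF-Y core each and no RBPJ core. Among 32851 RefSeq promoters of the same length, 33.9% held the NF-Y core and 21.6% the RBPJ core. The GC box (GGGCGG on either strand) was found 2 times before Sox11 and 3 times before Sox12 and was not found before Sox4, against 32.7% of all promoters with a match. The Sox13 promoter held 1 RBPJ core. Of the 6 start sites of Sox6, 5 held a core site of Sox proteins (ACAAAG on either strand), which 16.5% of all promoters held. These matches are descriptions of the letters in these windows and carry no measurement of binding.

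Total counts per library ranged from 27301396 to 123907626, and the Dll1- library of mouse 3 was the deepest. The least counted of the 8 genes, Sox11, had 78 to 570 counts per library, and the most counted, Sox10, had 10123 to 55696. The level of a gene is given in CPM, its counts per 1000000 counts of the library after TMM normalization. Reads are not independent molecules, so that counting error is a lower limit of the error. Dll1 itself was measured at 7.61 to 50.3 CPM in the Dll1- and 87.5 to 250.2 CPM in the Dll1+ libraries (log2 fold change 2.90 ± 0.24 SE, adjusted p = 0.00651). Epithelial markers were present throughout, with 6 luminal keratin, claudin and Epcam transcripts summing to 4879 to 8422 CPM. Transcripts of other cell types were also present. The 6 fibroblast markers summed to 985 to 1218 CPM in the PyMT-Dll1GFP libraries, to 2978 and 3231 CPM in the Dll1+ and to 7426 and 21350 CPM in the Dll1- libraries of PyMT-Dll1mCh mice. In bulk RNA, fewer cells of a type and less RNA per cell cannot be told apart.

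Per kilobase of exon, Sox10 was the most abundant of the 8 transcripts in every library, at 153 ± 20.5 CPM per kb (mean ± SD of 8 libraries, as in the following levels). Sox9 (72.0 ± 22.5) and Sox4 (60.2 ± 12.5) followed, and each ranked 2 in some libraries and 3 in others. Their order thus changed between libraries. In the Dll1+ libraries of mice 1 and 2, Sox9 stood at 98.6 and 101.2 and Sox4 at 67.8 and 60.2 CPM per kb. These 3 genes held 91.9% to 94.7% of the summed per-kilobase level of the 8 genes in each library. A gap separated them from Sox13 (8.56 ± 0.65), Sox8 (6.10 ± 1.04) and Sox12 (2.48 ± 0.84), whose ranks of 4, 5 and 6 were the same in the 8 libraries. Sox11 (0.631 ± 0.282) and Sox6 (0.576 ± 0.197) were lowest and changed places when the length of the longest transcript was used in place of the union of exons. The levels of Sox10, Sox9 and Sox4 also lay above those of all 7 other Sox genes that passed the filter.

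**Figure D1:**
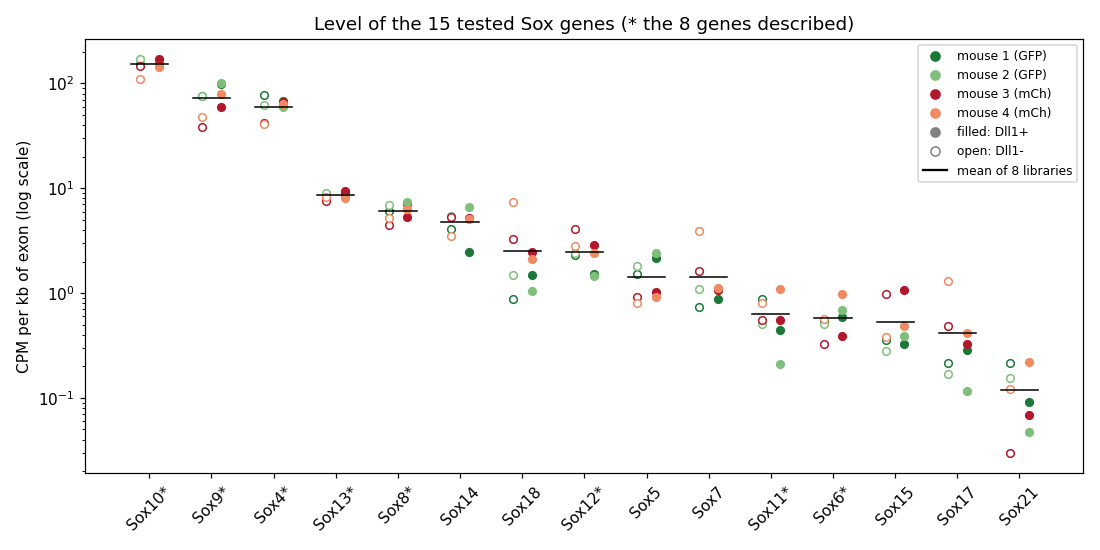
Level of the 15 tested Sox genes in CPM per kilobase of exon (vertical axis, log scale), with 1 point per library, colored by mouse, open for Dll1- and filled for Dll1+, and a bar at the mean of 8 libraries. Sox10, Sox9 and Sox4 stood at means of 153, 72.0 and 60.2, and the next gene, Sox13, at 8.56.

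The Dll1+ and Dll1- libraries of each mouse were then compared, to ask which of these factors differ between Dll1+ tumor cells and the rest. Over the 4 mice, Sox9 rose and Sox12 fell in Dll1+ cells, and the other 6 genes did not pass the test (edgeR quasi-likelihood test with the mouse as a block, Benjamini-Hochberg adjustment over 18322 genes, threshold 0.05). These 2 of 8 genes stand against 14.0% of all genes tested, and a count of 2 does not set the family apart. The median log2 fold change of the 8 genes was 0.19, beside -0.001 for all genes tested. In PyMT-Dll1GFP mice, 3 of the 8 passed (Sox9 higher, Sox11 and Sox12 lower) against 9.13% of all genes. In PyMT-Dll1mCh mice, 2 passed (Sox4 and Sox9, both higher) against 11.8% of all genes. Sox9 was the gene that passed in all 3 of these tests. The difference between the effects in the reporter lines passed for 0 of 8 genes by edgeR, against 0.0710% of all genes. DESeq2 called 1 of 8 for this difference (Sox4), against 2.95% of all genes. In fits without the mouse block, 0 of 8 genes passed, beside 0 of all 18322 genes over the 4 mice, 274 in PyMT-Dll1GFP and 212 in PyMT-Dll1mCh mice.

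**Figure D2:**
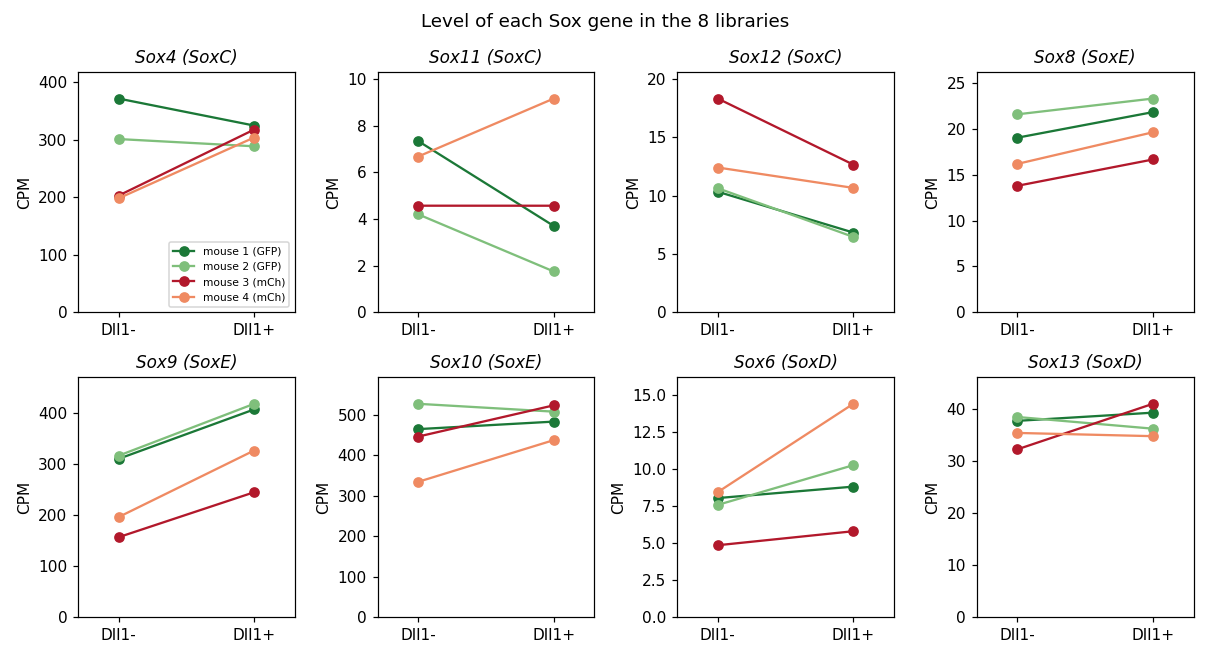
CPM of each of the 8 Sox genes (vertical axes, from 0) in the Dll1- and Dll1+ library of each mouse, joined by a line, green for PyMT-Dll1GFP and red for PyMT-Dll1mCh mice. All 4 lines of Sox9 rise and all 4 lines of Sox12 fall, while the lines of Sox4 rise from 198 and 203 to 304 and 318 CPM in PyMT-Dll1mCh mice only.

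Among the SoxC genes, Sox12 was lower in the Dll1+ library of every mouse, Sox4 was higher in Dll1+ cells of PyMT-Dll1mCh mice, and Sox11 was lower in Dll1+ cells of PyMT-Dll1GFP mice. Sox12, which is broadly expressed in embryonic tissues beside Sox4 and Sox11, was measured at 10.3 and 6.84 CPM in the Dll1- and Dll1+ library of mouse 1, 10.6 and 6.46 in mouse 2, 18.3 and 12.7 in mouse 3, and 12.4 and 10.7 in mouse 4. The lowest values were the Dll1+ libraries of mice 1 and 2, and the Dll1+ values of mice 3 and 4 reached above the Dll1- values of mice 1 and 2, so that the order held within mice but the groups overlapped. The log2 fold change was -0.52 ± 0.11 (SE) over the 4 mice, a level 0.700 times that of Dll1- cells (adjusted p = 0.0354). It was -0.66 ± 0.15 in PyMT-Dll1GFP mice (adjusted p = 0.0430) and -0.38 ± 0.14 in PyMT-Dll1mCh mice (adjusted p = 0.128, interval -0.72 to -0.04), and the difference between these was 0.28 (interval -0.21 to 0.76, adjusted p = 0.628). The direction was the same in both reporter lines and in all fits that left out a mouse. The call over the 4 mice was lost without mouse 1 (adjusted p = 0.120), without mouse 2 (0.106) and without mouse 3 (0.144), with log2 fold changes of -0.45 to -0.51. In these fits 2.25%, 4.16% and 2.28% of all genes passed, against 14.0% with all 4 mice. In PyMT-Dll1GFP mice the log2 fold change was -0.713 without mouse 1 and -0.595 without mouse 2. The call was not kept in those fits, which leave 1 library per group.

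Sox4 was measured at 372 and 325 CPM in the Dll1- and Dll1+ library of mouse 1, at 301 and 289 in mouse 2, at 203 and 318 in mouse 3, and at 198 and 304 in mouse 4. The Dll1+ libraries of all 4 mice lay close together, and it was the Dll1- libraries of mice 3 and 4 that stood low, with no overlap with any other library. In PyMT-Dll1mCh mice Sox4 rose 1.55-fold (log2 0.63 ± 0.087, adjusted p = 0.0135), and it was -0.13 ± 0.087 in PyMT-Dll1GFP mice (adjusted p = 0.407, interval -0.34 to 0.08). The difference of 0.76 ± 0.12 between the reporter lines missed the threshold (unadjusted p = 0.000670, adjusted p = 0.0881, interval 0.46 to 1.06). With DESeq2 (adjusted p = 5.575e-05) and without a filter on low counts (adjusted p = 0.00105) the same difference passed. Whether the change of Sox4 from Dll1- to Dll1+ cells differs between the reporter lines thus depended on the tool and the filter. Fitted on the PyMT-Dll1mCh libraries alone, the change was 0.61 with an adjusted p of 0.0620, in a fit that called 0 of 19945 genes. With all 4 mice in the fit, the change was 0.25 ± 0.17 (adjusted p = 0.355). A long noncoding RNA on the other strand, Gm26735, overlaps Sox4, and its own level was 0.929 to 3.10 CPM. The strand setting of the counting is not given in the sources used here.

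The PyMT-Dll1mCh Dll1- libraries, where Sox4 was low, also held the highest levels of stromal transcripts. All 4 pericyte markers were higher there than in the Dll1- libraries of PyMT-Dll1GFP mice (summed 444 and 582 against 22.0 and 28.7 CPM), as were all 6 fibroblast, all 5 endothelial (120 and 279 against 36.6 and 38.1) and the 4 tested immune markers (summed over 5 markers, 104 and 120 against 25.0 and 31.1). None of these markers was at 0 in all libraries of a group. The part of these cells in the Sox4 difference was not tested. The summed luminal markers were 4879 and 6254 CPM in the same 2 libraries and 5067 and 5238 CPM in the Dll1- libraries of PyMT-Dll1GFP mice.

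Sox11, which is expressed mainly in embryonic neural and mesenchymal progenitors, was scarce in all libraries. It was measured at 7.34 and 3.70 CPM in the Dll1- and Dll1+ library of mouse 1, 4.19 and 1.75 in mouse 2, 4.56 and 4.56 in mouse 3, and 6.67 and 9.16 in mouse 4. Its level was thus lower in Dll1+ cells of both PyMT-Dll1GFP mice, equal in mouse 3 and higher in mouse 4. In PyMT-Dll1GFP mice the log2 fold change was -1.12 ± 0.21 (adjusted p = 0.0280), a level 0.460 times that of Dll1- cells. It was 0.23 ± 0.20 in PyMT-Dll1mCh mice (adjusted p = 0.495, interval -0.26 to 0.71). The difference between the reporter lines was 1.35 ± 0.29 (unadjusted p = 0.00319, adjusted p = 0.150, interval 0.64 to 2.05), and it passed without a filter on low counts (adjusted p = 0.004755). In PyMT-Dll1GFP mice the log2 fold change was -1.26 without mouse 1 and -0.987 without mouse 2. The call was not kept in those fits, which leave 1 library per group. Over the 4 mice, with opposite values in the reporter lines, the change was -0.42 ± 0.32 (adjusted p = 0.400).

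**Figure D3:**
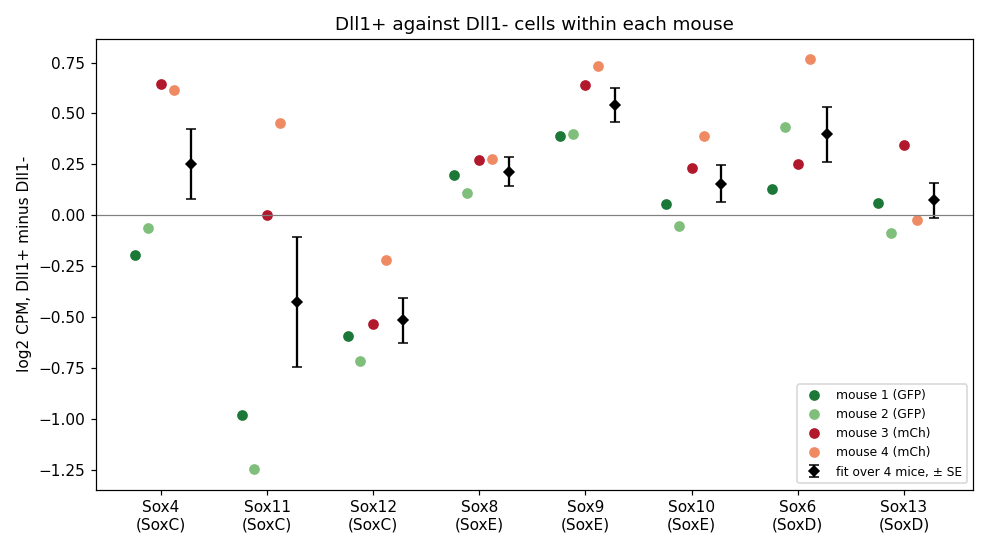
Difference in log2 CPM between the Dll1+ and Dll1- library of each mouse (vertical axis) for the 8 Sox genes, green for PyMT-Dll1GFP and red for PyMT-Dll1mCh mice, with the fitted change over the 4 mice and its SE as black diamonds. Sox9 lies above 0 in 4 of 4 mice at 0.39 to 0.73 and Sox12 below 0 in 4 of 4 at -0.72 to -0.22, while Sox4 and Sox11 separate by reporter line.

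Among the SoxE genes, Sox9 rose in Dll1+ cells of both reporter lines, Sox8 was higher in the Dll1+ library of every mouse without passing the test, and Sox10 did not pass. Sox9, a factor of luminal progenitors and mammary stem-like cells, was measured at 311 and 408 CPM in the Dll1- and Dll1+ library of mouse 1, 317 and 419 in mouse 2, 157 and 245 in mouse 3, and 197 and 327 in mouse 4. The Dll1+ library was higher in 4 of 4 mice, by 1.31- to 1.66-fold, while the values of the 2 groups overlapped because mice 3 and 4 had lower levels in both libraries. The log2 fold change over the 4 mice was 0.54 ± 0.083, a 1.46-fold rise (adjusted p = 0.0150). It was 0.40 ± 0.085 in PyMT-Dll1GFP mice (adjusted p = 0.0395) and 0.69 ± 0.085 in PyMT-Dll1mCh mice (adjusted p = 0.0110), and the difference of 0.29 between them had an interval from 0.001 to 0.58 (adjusted p = 0.376). The direction was thus shared by both reporter lines and all mice. Without mouse 1 the change over the remaining mice was 0.60 (adjusted p = 0.0524), and without mouse 3 it was 0.51 (adjusted p = 0.0735). In these fits 2.25% and 2.28% of all genes passed, against 14.0% with all 4 mice. In PyMT-Dll1GFP mice the change was 0.407 without mouse 1 and 0.392 without mouse 2. The call was not kept in those fits, which leave 1 library per group. The call in PyMT-Dll1mCh mice was lost when those libraries were fitted alone (0.67, adjusted p = 0.0604), where 0 of 19945 genes passed. In PyMT-Dll1GFP mice, the summed fibroblast markers were 1070 and 1218 CPM in Dll1- and 985 and 1132 CPM in Dll1+ libraries. In PyMT-Dll1mCh mice, where Sox9 also rose, they were 7426 and 21350 CPM in Dll1- and 2978 and 3231 CPM in Dll1+ libraries. Pericyte markers there summed to 444 and 582 CPM in Dll1- and 79.5 and 80.5 CPM in Dll1+ libraries, and immune markers to 104 and 120 and to 51.5 and 58.6 CPM. The part of these cells in the Sox9 change of PyMT-Dll1mCh mice was not tested.

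Sox8, a close relative of Sox9 and Sox10 that acts with them in the neural crest, was measured at 19.0 and 21.8 CPM in the Dll1- and Dll1+ library of mouse 1, 21.6 and 23.3 in mouse 2, 13.8 and 16.7 in mouse 3, and 16.2 and 19.6 in mouse 4. The Dll1+ library was the higher one in 4 of 4 mice, by 1.08- to 1.21-fold, and the groups overlapped. The log2 fold change over the 4 mice was 0.22 ± 0.069 (unadjusted p = 0.0203, adjusted p = 0.0904, interval 0.05 to 0.38), and DESeq2 gave an adjusted p of 0.0433. The antisense gene 2810468N07Rik, at 17.2 to 33.0 CPM, overlaps Sox8, and whether reads of one were counted for the other was not tested.

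Sox10, the neural crest and glial factor, was measured at 464 and 483 CPM in the Dll1- and Dll1+ library of mouse 1, 527 and 507.5 in mouse 2, 446 and 523 in mouse 3, and 334 and 437 in mouse 4. The highest and lowest libraries were both Dll1-, those of mouse 2 and mouse 4. The log2 fold change was 0.16 ± 0.092 over the 4 mice (adjusted p = 0.290, interval -0.07 to 0.38), 0.001 in PyMT-Dll1GFP mice (interval -0.24 to 0.24) and 0.31 in PyMT-Dll1mCh mice (adjusted p = 0.0939, with 0.0301 by DESeq2). Markers of the glial and neural crest lineages in which Sox10 is best known ranged widely. The 6 Schwann cell markers summed to 59.4 to 109 CPM, with Mbp, a myelin protein, at 34.4 to 49.7, Cdh19 at 7.63 to 52.0 and the calcium-binding protein S100b at 8.40 to 25.4 CPM. The receptor Erbb3, a known Sox10 target that epithelial cells also use, stood at 115 to 228 CPM. Foxd3, a neural crest factor, stood at 0 to 0.0661 CPM, with no count in any PyMT-Dll1GFP library. The melanocyte markers Dct, Tyrp1 and Mlana had 0 counts in some libraries, and the 5 melanocyte markers summed to 1.37 to 4.40 CPM.

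Of the SoxD genes among the 8, neither Sox6 nor Sox13 passed the edgeR test in any comparison of Dll1+ with Dll1- cells. Sox6, which modulates SoxE action in cartilage and regulates erythroid genes, was measured at 8.05 and 8.82 CPM in the Dll1- and Dll1+ library of mouse 1, 7.59 and 10.3 in mouse 2, 4.87 and 5.81 in mouse 3, and 8.46 and 14.4 in mouse 4. The Dll1+ library was higher in 4 of 4 mice, by 1.10- to 1.70-fold, and mouse 3 was lowest in both groups. The log2 fold change over the 4 mice was 0.40 ± 0.14 (unadjusted p = 0.0251, adjusted p = 0.103, interval 0.07 to 0.73), and DESeq2 gave an adjusted p of 0.0483. Sox13 was measured at 37.7 and 39.3 CPM in mouse 1, 38.5 and 36.2 in mouse 2, 32.3 and 41.0 in mouse 3, and 35.4 and 34.8 in mouse 4, with the Dll1- value first. Its change over the 4 mice was the smallest of the 8 genes, with 36.0 ± 2.80 CPM in Dll1- and 37.8 ± 2.83 CPM in Dll1+ libraries (mean ± SD of 4 libraries each). Its log2 fold change was 0.08 ± 0.086 (adjusted p = 0.581, interval -0.13 to 0.28).

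**Figure D4:**
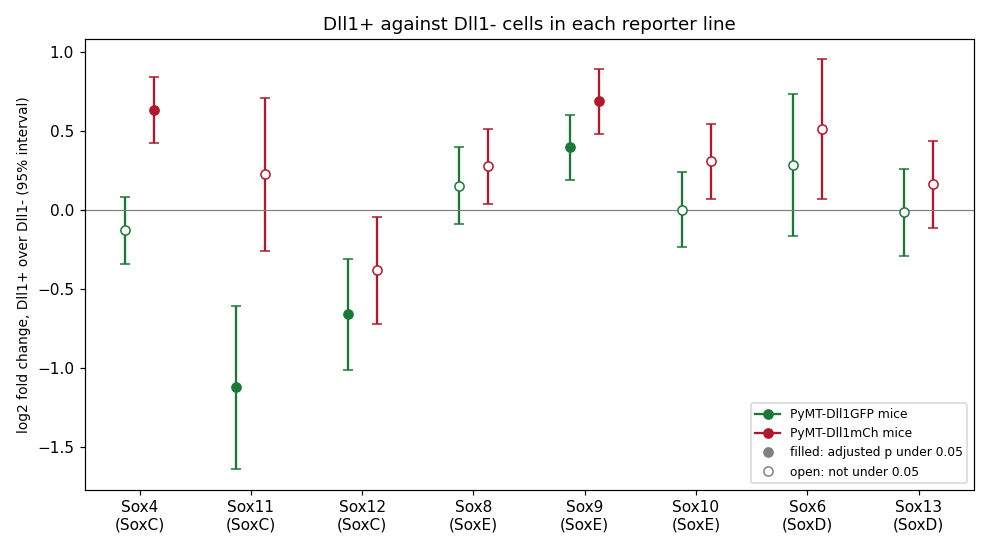
Fitted log2 fold change of Dll1+ over Dll1- cells with its 95% interval (vertical axis) for the 8 Sox genes, in PyMT-Dll1GFP (green) and PyMT-Dll1mCh mice (red), filled where the adjusted p was under 0.05. Sox4 stood at 0.63 and Sox11 at 0.23 in PyMT-Dll1mCh mice, against -0.13 and -1.12 in PyMT-Dll1GFP mice.

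The reporter lines were also compared directly, within Dll1- and within Dll1+ cells. In Dll1- cells, Sox4 and Sox9 were lower in PyMT-Dll1mCh than in PyMT-Dll1GFP mice, by a log2 difference of -0.75 ± 0.13 for Sox4 (adjusted p = 0.00614) and of -0.83 ± 0.17 for Sox9 (adjusted p = 0.0102). These 2 of 8 genes stand against 36.6% of all genes tested. In Dll1+ cells, Sox12 was 1.76-fold higher in PyMT-Dll1mCh mice (log2 0.81 ± 0.21, adjusted p = 0.0300), and 1 of 8 genes stands against 30.6% of all genes. Sox9 had a log2 difference of -0.53 in Dll1+ cells (adjusted p = 0.0511, with 0.0131 by DESeq2), and Sox4 of 0.02 (interval -0.29 to 0.33). Sox11 was measured at 1.75 and 3.70 CPM in Dll1+ cells of PyMT-Dll1GFP and at 4.56 and 9.16 CPM in those of PyMT-Dll1mCh mice, without overlap, but with a difference of 1.35 ± 0.52 that did not pass (adjusted p = 0.0905). The calls of Sox4 and Sox9 in Dll1- cells and of Sox12 in Dll1+ cells were kept without mouse 3 or mouse 4. They were lost without mouse 1 or mouse 2, in fits that leave 1 PyMT-Dll1GFP library per group. Over all alternatives the log2 difference was -0.91 to -0.60 for Sox4, -0.95 to -0.68 for Sox9 and 0.65 to 0.94 for Sox12. Without mouse 1 or mouse 2, 0 of all genes passed in either comparison, and the adjusted p was then 0.0979 and 0.0697 for Sox4, 0.122 and 0.119 for Sox9, and 0.216 and 0.264 for Sox12. Without mouse 4, 5 of 8 genes passed in Dll1- cells, against 42.6% of all genes, and 4 in Dll1+ cells, against 37.5%. Without mouse 3, 3 of 8 passed in Dll1- cells, against 38.7% of all genes, and 3 in Dll1+ cells, against 35.7%. Sox6 changed sign, from a difference of 0.56 in Dll1+ cells without mouse 3 (adjusted p = 0.0481) to -0.71 without mouse 4 (adjusted p = 0.0338).

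**Figure D5:**
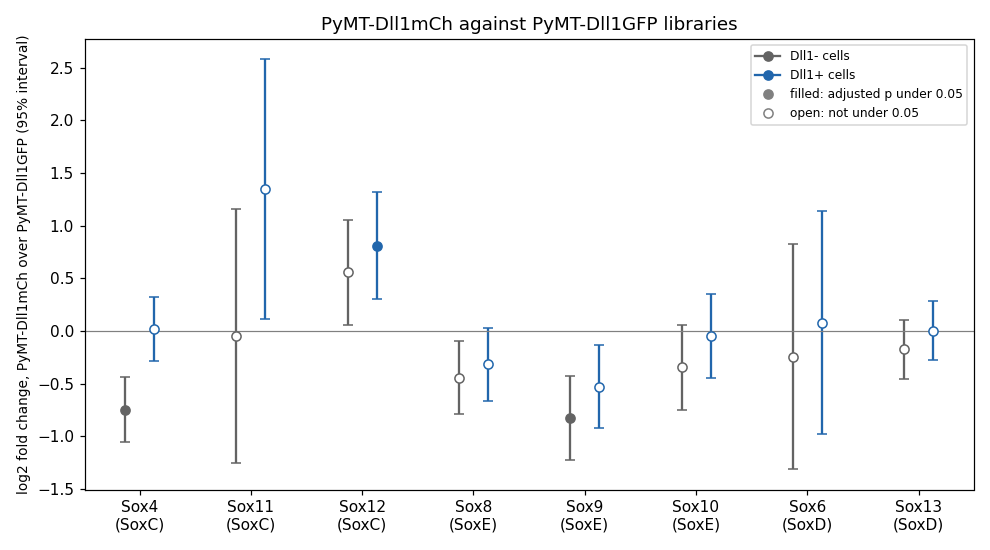
Fitted log2 fold change of PyMT-Dll1mCh over PyMT-Dll1GFP libraries with its 95% interval (vertical axis) for the 8 Sox genes, in Dll1- cells (gray) and Dll1+ cells (blue), filled where the adjusted p was under 0.05. Sox9 stood below 0 in both (-0.83 and -0.53) and Sox12 above 0 in both (0.56 and 0.81), and the intervals of Sox6 and Sox11 were the widest.

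Of the 11 other Sox genes in the table, 7 passed the filter, and by edgeR none of the 7 passed the test of Dll1+ against Dll1- cells in the 4 mice together. Sox5, the third SoxD gene, was 1.37-fold higher in Dll1+ cells of PyMT-Dll1GFP mice (30.8 and 34.4 against 21.8 and 25.9 CPM, adjusted p = 0.0387), and its log2 fold change over the 4 mice was 0.31 (adjusted p = 0.0698, with 0.0374 by DESeq2). It was also lower in PyMT-Dll1mCh than in PyMT-Dll1GFP mice, by -0.93 in Dll1- and -1.24 in Dll1+ cells (adjusted p = 0.00426 and 0.00396). In these comparisons 36.6% and 30.6% of all genes passed. The SoxF genes Sox7, Sox17 and Sox18, factors of endothelial cells, were 3.03-, 4.61- and 4.45-fold higher in Dll1- cells of PyMT-Dll1mCh mice (adjusted p = 0.0276, 0.0292 and 0.0124). These calls also stand beside the 36.6% of all genes. The Dll1- libraries of mice 3 and 4 held 5.36 and 12.95 CPM of Sox7, 2.29 and 6.21 of Sox17, and 5.26 and 11.86 of Sox18. The endothelial markers Pecam1 and Cdh5 were 5.08- and 5.26-fold higher in the same comparison (adjusted p = 0.00442 and 0.00499). The part of endothelial cells in the SoxF differences was not tested. Sox14, Sox15 and Sox21 did not pass in any comparison, and Sox21 had 8 to 46 counts per library, with a level in Dll1+ cells 0.365 times that of Dll1- cells in PyMT-Dll1GFP (adjusted p = 0.0948) and 2.01 times in PyMT-Dll1mCh mice (adjusted p = 0.157). Sox1, Sox2, Sox3 and Sox30 had at most 7 counts in any library, which for Sox2, a factor of pluripotent cells, means at most 0.0720 CPM.

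The partners and known targets of these factors were read from the same fits, and the count of each list over the 4 mice stands beside the 14.0% of all genes that passed. Without mouse 1, mouse 2, mouse 3 or mouse 4, that share was 2.25%, 4.16%, 2.28% and 13.1%. Calls given below as lost with a mouse left out stand beside these shares. TCF/LEF factors belong to the same superfamily of DNA-binding proteins and carry Wnt signals with the Groucho co-repressors. Of the 10 genes on that list, 1 rose (Tcf7l2, 1.43-fold, adjusted p = 0.0285) and 1 fell in Dll1+ cells (Tcf7l1, to 0.529 times its level, adjusted p = 0.0368), and the log2 change of Tcf7 was -0.56 (adjusted p = 0.0656). Tcf7l2 was measured at 22.5 to 54.6 CPM in Dll1- and 38.2 to 67.3 CPM in Dll1+ libraries, higher in 4 of 4 mice. The call of Tcf7l1 was lost with any 1 mouse left out (adjusted p = 0.0536 to 0.117), and that of Tcf7l2 without mouse 1, mouse 2 or mouse 3 (0.0551 to 0.101). Of the 4 tested SoxC targets, Map2, a microtubule protein of neurons, rose in both reporter lines (1.48-fold over the 4 mice, adjusted p = 0.00534), Ezh2, the histone methyltransferase of the Polycomb complex, fell (0.779 times, adjusted p = 0.0439), and the log2 change of Tead2 was 0.13 (adjusted p = 0.202). The call of Ezh2 was lost without mouse 1, mouse 2 or mouse 3 (adjusted p = 0.129 to 0.159), and that of Map2 was kept with any 1 mouse left out. The known target Tubb3 reached 2.31 CPM at most.

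Of the 8 tested cartilage genes that SoxE and SoxD factors activate, 2 rose over the 4 mice and none fell, against 14.0% of all genes. Col11a1, a chain of the fibrillar collagen of cartilage, was higher in 4 of 4 mice (1.73-fold, adjusted p = 0.0385), as was Col9a3 (1.28-fold, adjusted p = 0.0388), and the log2 change of Col9a2 was 0.52 (adjusted p = 0.0604). The call of Col9a3 was lost with any 1 mouse left out (adjusted p = 0.0643 to 0.129), and that of Col11a1 without mouse 1, mouse 2 or mouse 3 (0.112 to 0.118) and without a filter on low counts (0.0724). Col9a1, Col9a2 and Col9a3 were abundant at 146 to 459 CPM over all libraries. Col2a1 stood at 15.2 to 64.1, Col11a2 at 6.55 to 14.1 and Cnmd at 1.06 to 12.25 CPM. The cartilage proteoglycan Acan stayed at 0.0895 to 1.58 CPM and Matn1 had at most 1 count. Of the 9 tested neural crest and glial targets, Mia, a secreted protein of melanoma and cartilage, rose (1.65-fold, adjusted p = 0.00944, higher in 4 of 4 mice) and Gjb1, the gap junction protein of myelinating glia, fell (0.564 times, adjusted p = 0.0437). The call of Mia was lost without mouse 1 (adjusted p = 0.0505) or mouse 3 (0.0563), and that of Gjb1 with any 1 mouse left out (0.0643 to 0.154). Over the 4 mice, the medians of the lists were 0.001 (TCF/LEF), -0.12 (SoxC targets), 0.19 (cartilage) and 0.03 (neural crest), beside -0.001 for all genes.

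Of 19 mammary lineage factors, 4 rose and 3 fell in Dll1+ cells, against 14.0% of all genes. Runx1, a Runt-domain factor of mammary epithelium, rose 1.59-fold (adjusted p = 0.0109), while Foxa1, the pioneer factor of hormone-sensing luminal cells, fell to 0.272 times (adjusted p = 0.0244) and Tbx3 to 0.248 times its level (adjusted p = 0.0179). The call of Foxa1 was lost without mouse 1, mouse 2 or mouse 3 (adjusted p = 0.0817 to 0.0879) and without a filter on low counts (0.0530), that of Tbx3 without mouse 1 (0.0759) or mouse 2 (0.0660), and that of Runx1 without mouse 3 (0.0554). Cell type markers also differed between Dll1+ and Dll1- cells. Of the 9 basal markers, 4 were higher in Dll1+ cells and all 9 had a positive log2 fold change, with summed levels of 152 to 700.1 CPM in Dll1- and 239 to 1521 CPM in Dll1+ libraries, and Krt5 rose 6.83-fold (adjusted p = 0.00730). Of the 4 luminal progenitor markers, 3 were higher (summed 581 to 949 CPM in Dll1- and 798 to 1209 in Dll1+ libraries), and of the 5 hormone-sensing markers, 4 were lower (104 to 230 and 55.4 to 105 CPM). None of these markers was at 0 in all libraries of a group. The part of these cell states in the changes of Sox9 and Sox12 was not tested.

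The protein-coding genes most like each Sox gene were sought among 14628 genes by Pearson correlation of log2 CPM over the 8 libraries. These libraries share mice and reporter lines in pairs, so that the coefficients are descriptions. Nup35, a nucleoporin, was close to Sox12 (0.993), and 932 genes had a correlation over 0.9 with it. Sox9 was closest to Mob3b (0.994) and Pnrc1 (0.993), with 766 genes over 0.9, and Sox8 to Ccdc47 (0.983) and Styx (0.982), with 725. Sox6 was closest to the desmosomal gene Pkp2 (0.980) and to Creb5 (0.976), Sox4 to the formin-related Fhdc1 (0.988) and to Ip6k2 (0.956), Sox10 to Cep19 (0.974) and Zfp276 (0.968), and Sox11 to Zfp992 (0.987) and Wdr1 (0.982). For Sox4, Sox6, Sox10 and Sox11, 21 to 90 genes had a correlation over 0.9. Sox13 had no gene over 0.9, with Hist2h3c2 (0.861) and Btn1a1 (0.859) the closest.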

How the data were processed

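RNA was measured in 8 libraries of lineage-negative tumor cells, and the groups, mice and pairs were taken from the labels. The authors quantified GENCODE M20 transcripts (GRCm38.p6) with salmon and used tximport to obtain gene values. The deposited table holds these estimated counts as whole numbers, not normalized. All deposited columns were used. Exon lengths and overlaps came from GENCODE M21 on GRCm38. Tests were made with edgeR 4.0.16 under R 4.3.3 (TMM, filterByExpr on Dll1 status, robust quasi-likelihood F test, Benjamini-Hochberg adjustment over 18322 genes) in 3 fits of all 8 libraries: the mouse and Dll1 status, the mouse and a Dll1 effect per reporter, and the 4 groups. The mouse identity in the labels gives the pairing, and paired libraries deviated from the means of their groups with a correlation, over genes, of 0.55 in PyMT-Dll1mCh and -0.05 in PyMT-Dll1GFP mice. Log2 CPM used a prior count of 2. SE is the absolute log2 fold change over the root of F, and intervals are 95%. Replicates are mice, 2 per group.

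The genes described were the 8 Sox genes, the other Sox genes that passed the filter, up to 3 genes with the lowest p of each list, the 2 genes most like each Sox gene, Dll1 and marker genes that touch a result. Other genes named (Acan, Col9a1, Col2a1, Col11a2, Cnmd, Matn1, Foxd3, Mbp, Cdh19, S100b, Erbb3, Tubb3, the melanocyte markers and the 4 untested Sox genes) were chosen after their values were seen. A few genes selected by the rule are not reported here. The Sox genes and the lists were chosen with earlier results of these data known. The alternatives were RLE size factors, DESeq2 1.42.0, no filter on low counts, a minimum of 10 counts per library, no mouse block or a random effect of the mouse (limma 3.58.1), fewer libraries and each mouse left out in turn. The scripts were tested on simulated counts.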

Additional observations from a re-analysis of the deposited data

How the results depend on the processing

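Of 464 alternative values for the 8 Sox genes, 386 kept their direction and side of the threshold, 26 lost and 24 gained a call, and 28 changed sign. The number of Sox genes called over the 4 mice was 2 (14.0% of all genes), and 4 by DESeq2 (23.8%). It was 0 without the replicate block (0%) and 0 to 2 with a mouse left out (2.25% to 13.1%). In PyMT-Dll1GFP mice it was 3, and 0 without the replicate block and 0 to 3 with a mouse left out. In PyMT-Dll1mCh mice it was 2 (11.8% of all genes), and 3 by DESeq2 (13.5%). There it was 0 without the replicate block (1.16%) and 0 with each reporter fitted alone (0%). For the difference it was 0 (0.0710% of all genes), and 1 by DESeq2 (2.95%) and 2 without a filter (3.28%). Between reporter lines it was 2 in Dll1- cells, with 0 to 5 when a mouse was left out. It was 1 in Dll1+ cells, with 2 by RLE size factors, 3 by DESeq2, 3 without a filter, 2 with at least 10 counts in every library, 2 with a replicate block as a random effect of the mouse, and 0 to 4 when a mouse was left out. The replicate block as a random effect also gave Sox8 a call in Dll1- cells (-0.48, adjusted p = 0.0419) and Sox9 in Dll1+ cells (-0.54, adjusted p = 0.0354).

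Of the values that changed sign, the one that passed the test was that of Sox6 between reporter lines in Dll1+ cells without mouse 4. Between reporter lines in Dll1+ cells, Sox4 was -0.004 (RLE), -0.003 (DESeq2) and -0.001 (only the 4 libraries), and ranged from -0.081 to 0.092 with a mouse left out. Sox13 was -0.017 (RLE), -0.016 (DESeq2), -0.005 (at least 10 counts) and -0.014 (only the 4 libraries), with -0.154 to 0.125 when a mouse was left out. Sox6 was -0.12 with the random replicate block and ranged from -0.71 to 0.557 with a mouse left out, and Sox10 from -0.215 to 0.085. In Dll1- cells, the ranges were -0.638 to 0.109 for Sox6 and -0.411 to 0.405 for Sox11. Between Dll1+ and Dll1- cells of PyMT-Dll1GFP mice, Sox10 was -0.001 without the replicate block and -0.048 to 0.058 with a mouse left out, and Sox13 was 0.001 by RLE and by DESeq2 and -0.081 to 0.06 with a mouse left out. In PyMT-Dll1mCh mice, the ranges were -0.029 to 0.435 for Sox11 and -0.047 to 0.317 for Sox13. The range of the difference was -0.069 to 0.451 for Sox6 and -0.043 to 0.322 for Sox13. Over the 4 mice it was -0.018 to 0.132 for Sox13, -0.157 to 0.248 for Sox14 and -0.614 to 0.309 for Sox21. The causes were not tested. Sox15, with 7 to 105 counts per library, and Sox21, with 8 to 46, had the lowest minimum counts of the tested Sox genes. A fit without 1 mouse leaves a group with 1 library, whose spread is taken from the others.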
